A study of Homo sapiens with 282 samples.

Results

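Trichostatin A, a hydroxamic acid that blocks histone deacetylases, was compared with its vehicle after 6 h in OCI-Ly3 cells, an established line grown from a patient's large B cell lymphoma. The comparison rests on 14 of the 282 microarrays of the series, chosen by their titles: 3 arrays at 0.143 uM, 3 arrays at 0.114 uM and 8 arrays of 1% DMSO. All 14 were of the same line with no genetic change named, grown in 96-well plates and harvested at 6 h. The share of DMSO in the drug wells is not given in the sources used here. The same compound was also profiled at 12 and 24 h with the same numbers of arrays, and 27 other groups of 6 h held 13 other drugs, DMSO and untreated medium.

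Histone deacetylases remove acetyl groups from lysines of histones and of many other proteins, and they work inside corepressor complexes such as NCoR, Sin3 and NuRD. Acetyltransferases such as CREBBP and EP300 add the groups, and bromodomain proteins such as BRD2 bind them. Inhibitors of the deacetylases are used against lymphomas, where CREBBP and EP300 are often mutated, and they are known both to raise genes that a cell type keeps silent and to lower highly transcribed ones.

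Gene expression was measured as the log2 intensity of 1 probe set for each of 18239 genes. A change is the mean of the 2 Trichostatin A groups minus the DMSO mean, with its standard error (SE), so that 1 unit is a 2-fold difference. RNA came from single wells, and nothing states that wells were separate experiments, so p-values measure the spread between wells. In RNA of whole wells, fewer cells of a kind and less RNA per cell cannot be told apart. The upper quartile of all probe sets lay between 8.26 and 8.29 on the 6 Trichostatin A arrays and between 8.22 and 8.32 on the DMSO arrays. Pearson correlations over genes were 0.997 between Trichostatin A arrays, 0.994 to 0.998 between DMSO arrays, and 0.977 to 0.982 between the groups.

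The B cell label was checked against its markers. CD74, the invariant chain, had a mean DMSO level of 13.10 ± 0.10 (SD, n = 8) and lay at or above percentile 99.2 of every DMSO array, and PAX5 lay at or above percentile 53.8. MS4A1 (CD20), CD79A, CD79B and CD22, which define most B cells, were low, with mean DMSO levels of 4.64, 5.02, 4.94 and 4.73. Markers of other cell types lay below the median of every DMSO array for 17 of 22 T and NK cell genes, 17 of 17 myeloid genes, 12 of 12 erythroid and megakaryocyte genes, and 17 of 20 stromal and epithelial genes. The T and NK cell genes that were not low included CD5, CD4 and ZAP70, with mean DMSO levels of 9.75, 9.48 and 8.97. Of all 22 T and NK cell genes, 1 rose and 5 fell under Trichostatin A. Their summed log2 level ran from 121 to 125 against 124 to 126 in DMSO. Of the myeloid genes 3 rose and 1 fell (72.7 to 75.2 against 73.5 to 75.1), of the erythroid and megakaryocyte genes 1 rose (55.3 to 56.6 against 54.2 to 55.6), and of the stromal and epithelial genes 1 rose and 1 fell (96.4 to 98.0 against 95.8 to 98.8). Their part in the changes below was not tested.

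At 6 h, 4469 genes rose and 4452 fell (limma, Benjamini-Hochberg adjusted p under 0.05), which is 24.5% and 24.4% of the genes tested. Called genes made up 48.9% of all genes, and this is the background for every count of called members given here. The median change of all genes was -0.006. Of the called genes, 469 rose and 565 fell by at least 1 log2 unit (2.57% and 3.10% of genes), and 29 and 19 by at least 2. All 6 Trichostatin A arrays lay above all 8 DMSO arrays for 3073 of the genes that rose (16.8% of all genes), and below them for 3082 of those that fell (16.9%). The median SE was 0.079.

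The largest rise was that of GPR155, a multipass membrane protein. It measured 8.55, 8.50 and 8.64 at 0.143 uM and 8.69, 8.65 and 8.70 at 0.114 uM, against 5.40 (lowest), 5.62 (median) and 6.17 (highest) in DMSO, a change of 2.89 ± 0.11 (SE, adjusted p = 4.47e-40 in limma). The groups were far apart and the doses overlapped closely. TXK, a kinase of the Tec family best known from T cells, came next. It measured 8.14, 8.35 and 8.22 at the higher dose and 8.18, 8.01 and 8.22 at the lower, against 4.76, 5.39 and 5.79 in DMSO, a change of 2.83 ± 0.12. The 6 treated arrays again lay above every control, which was a condition for being named among the largest rises. PCDH17 and PCDH9, cell adhesion protocadherins of the nervous system, rose by 2.62 ± 0.11 and 2.40 ± 0.09. CXADR, the epithelial junction protein that coxsackieviruses and adenoviruses bind, rose from DMSO levels of 6.55, 6.79 and 7.19 to 9.29, 9.15 and 9.60 at 0.143 uM and 9.13, 9.46 and 9.25 at 0.114 uM. Thus all treated arrays were at least 1 log2 unit above the highest control. DHRS2, a dehydrogenase known as a responder to deacetylase inhibitors, rose by 2.24 ± 0.09.

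The other large rises included ENPP2, the secreted lysophospholipase autotaxin, at 2.56 ± 0.08, AVPI1 at 2.49 ± 0.06, and DACT3, an inhibitor of Wnt signalling, at 2.45 ± 0.07. SERPINI1 (neuroserpin), the tubulin polymerisation factor TPPP and the microtubule protein MAP1A rose by 2.40 ± 0.08, 2.36 ± 0.11 and 2.18 ± 0.09. The 20 largest rises also held TENT5C, COL20A1, TRIM36, TSPAN13 and EFNA3, at 2.20 to 2.36, besides 3 genes described further on. For EGR3, 1 of 4 probe sets rose and the others ran down to 0.01, and for TRIM36 2 of 5 rose. The EGR3 probe set that rose had a mean level of 8.25 over the 6 h arrays, and its others 3.92 to 4.43. The TRIM36 probe sets that rose had mean levels of 5.58 and 5.01, and its others 4.82 to 4.96. The reason for these differences was not tested. GPR155 rose on 5 of its 6 probe sets, both probe sets of TXK rose, and TPPP rose on both of its own.

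PRDM10, a zinc finger transcription factor of the PRDM family, fell the most. It measured 5.51, 5.96 and 5.72 at 0.143 uM and 5.75, 5.55 and 5.99 at 0.114 uM, against 8.87, 8.90, 8.97, 8.98, 9.01, 9.01, 9.04 and 9.23 on the DMSO arrays, a change of -3.25 ± 0.06 (adjusted p = 1.1e-61 in limma), or 9.54-fold. All treated arrays lay about 3 log2 units below the controls on that probe set. The gene's other probe set, with a mean level of only 4.68 over the 6 h arrays, changed by -0.12. CCL1, a chemokine that draws CCR8-bearing cells, measured 7.36, 7.51 and 7.31 at the higher dose and 7.48, 7.49 and 7.44 at the lower, against 10.06, 10.19 and 10.31, a change of -2.76 ± 0.05. Its treated arrays were nearly equal among themselves. KIF26B, an unconventional kinesin, fell by 2.65 on the log2 scale on the probe set used, and 2 of its 4 probe sets fell.

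The 15 largest falls held 2 chromatin readers. ZMYND8, a reader of acetylated and methylated histones that associates with NuRD, measured 6.28, 6.10 and 6.32 at 0.143 uM and 6.45, 6.66 and 6.57 at 0.114 uM, against 8.58, 8.66 and 8.74 in DMSO, and all 7 of its probe sets fell. ZMYND11, a reader of histone H3.3 with trimethylated lysine, changed by -2.12 ± 0.05. KEAP1, the adaptor that sends NRF2 for degradation, measured 7.01, 7.02 and 7.02 at the higher dose and 6.94, 7.02 and 7.17 at the lower, against 9.16, 9.23 and 9.37, a change of -2.21 ± 0.05. For these 3 genes the treated and control arrays did not overlap, which the choice of the largest falls required. FAS, the death receptor, changed by -2.14 ± 0.08, COIL, the scaffold of Cajal bodies, by -2.14 ± 0.05, FAIM, an inhibitor of FAS-induced death, by -2.17 ± 0.09, and CD200R1, an inhibitory receptor, by -2.20 ± 0.09. FNDC9, RABEP2, ZBED2, SMIM43 and FAM217B completed the 15 largest falls, with changes from -2.57 to -2.21.

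**Figure D1:**
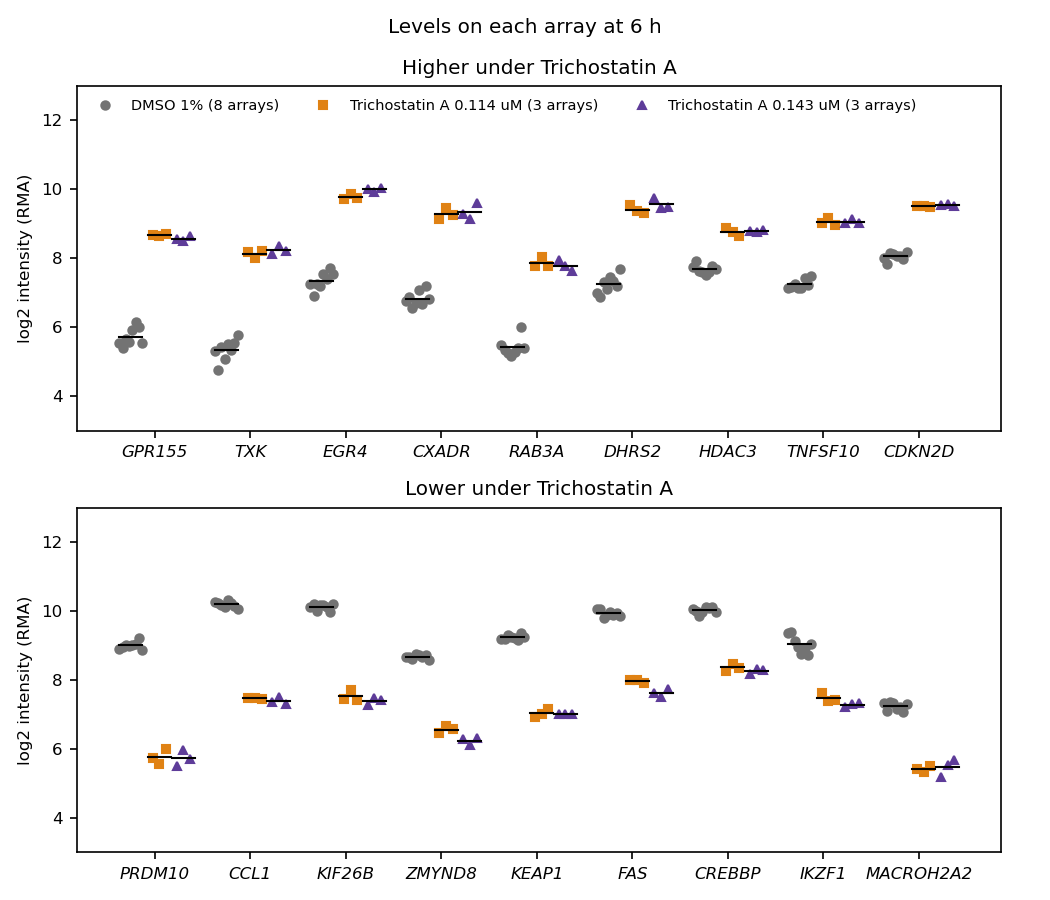
Log2 intensity (vertical axis) on each array at 6 h for 9 genes that rose and 9 that fell; grey circles are the 8 DMSO arrays, orange squares the 3 arrays at 0.114 uM, purple triangles the 3 at 0.143 uM, and black bars the group means. In all 18 genes the treated arrays lie on one side of the controls, as for PRDM10 at 5.51 to 5.99 against 8.87 to 9.23. This was a condition for the genes named as the largest rises and falls.

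The first group described is the acetylation machinery itself. Of 21 measured acetyltransferases and BET readers, 16 fell, 1 rose and 4 were not called, and the median change was -0.70 against -0.01 for all genes. KAT6B, an acetyltransferase of the MYST family, changed by -1.72 ± 0.07, from 7.96, 8.07 and 8.38 in DMSO to between 6.00 and 6.60 in the treated arrays, with a median of 6.43. CREBBP, the acetyltransferase CBP, measured 8.16 to 8.47 with a median of 8.29 under Trichostatin A and 9.85, 10.03 and 10.11 in DMSO, a change of -1.71 ± 0.06, and fell on all 5 of its probe sets. Its relative EP300, named after its values were seen, changed by -0.70. The groups did not overlap for any of these 3 genes. BRPF3, a scaffold of MYST complexes, and the BET protein BRD2 changed by -1.13 ± 0.08 and -1.10 ± 0.09. The exception was BRPF1, another MYST scaffold, which rose by 0.57.

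The deacetylases moved less and in both directions: of 18 deacetylases and sirtuins, 7 rose and 6 fell, with a median of 0.13. HDAC3, the catalytic subunit of the NCoR complex, rose the most. It measured 8.79, 8.78 and 8.83 at 0.143 uM and 8.87, 8.78 and 8.65 at 0.114 uM, against 7.53, 7.67 and 7.92 in DMSO, a change of 1.09 ± 0.09 (adjusted p = 3.06e-20 in limma), with no overlap. HDAC5 and HDAC11 rose by 0.54 and 0.51, and SIRT2 and SIRT7 by 0.63 and 0.59. The HDAC11 groups overlapped, with DMSO arrays up to 6.40 and treated arrays from 5.98. Its other probe sets ran from 0.02 to 0.24, and only that at 0.24 was called. HDAC6, the cytoplasmic tubulin deacetylase, and the mitochondrial SIRT5 fell by 0.47 and 0.61 on the log2 scale. HDAC1 and HDAC2, the class I enzymes of Sin3 and NuRD, changed by only -0.07 ± 0.03 and 0.14 ± 0.06 (adjusted p = 0.0324 and 0.0355). Their groups overlapped, and both calls were lost on leaving out any of several single arrays, the values then running from -0.09 to -0.06 for HDAC1 and from 0.12 to 0.18 for HDAC2. HDAC4 rose by 0.24, SIRT3, SIRT4 and SIRT6 fell by 0.18, 0.23 and 0.17, the call of SIRT6 being lost in most alternatives, and HDAC7, HDAC8, HDAC9, HDAC10 and SIRT1 did not pass, at -0.14 to 0.18. Beside the HDAC7 probe set used here, at 0.18, 3 of its 6 probe sets fell, down to -0.41. The other HDAC4 probe sets ran from -0.12 to 0.06 and were not called.

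Of 29 subunits of deacetylase complexes, 13 rose and 10 fell, with a median of 0.10. The NuRD subunits MTA3 and MBD3 changed the most, by -1.40 ± 0.07 and -1.10 ± 0.09. ING1, a Sin3 subunit that reads methylated histone H3, and GPS2 of NCoR rose by 0.72 and 0.63. Of 11 replacement and linker histone genes 2 rose and 3 fell. Among histone genes outside the replication-dependent clusters, MACROH2A2, a repressive H2A variant, measured 5.19 to 5.69 under Trichostatin A and 7.07, 7.26 and 7.35 in DMSO, a change of -1.79 ± 0.08. H2AJ rose by 1.04 and the linker histone H1-10 by 0.71. Of 51 replication-dependent histone genes 7 rose, 5 fell and 39 were not called, H2AC11 rising by 1.17; these genes are near-identical copies and their probes may not be specific.

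A list of genes that reviews name as raised by deacetylase inhibitors had 29 measured members, of which 16 rose and 4 fell, with a median of 0.28. After DHRS2, the largest rises were those of GLRX (glutaredoxin) at 1.86 ± 0.09, CRABP2 (a retinoic acid carrier) at 1.56 ± 0.10 and the CDK inhibitor CDKN1C at 1.35 ± 0.10. CDKN1A (p21), the textbook target, was named after its values were seen and rose by 0.37, from 11.78, 11.94 and 11.96 to 12.20, 12.27 and 12.33. These groups did not overlap, but the rise was a small one.

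**Figure D2:**
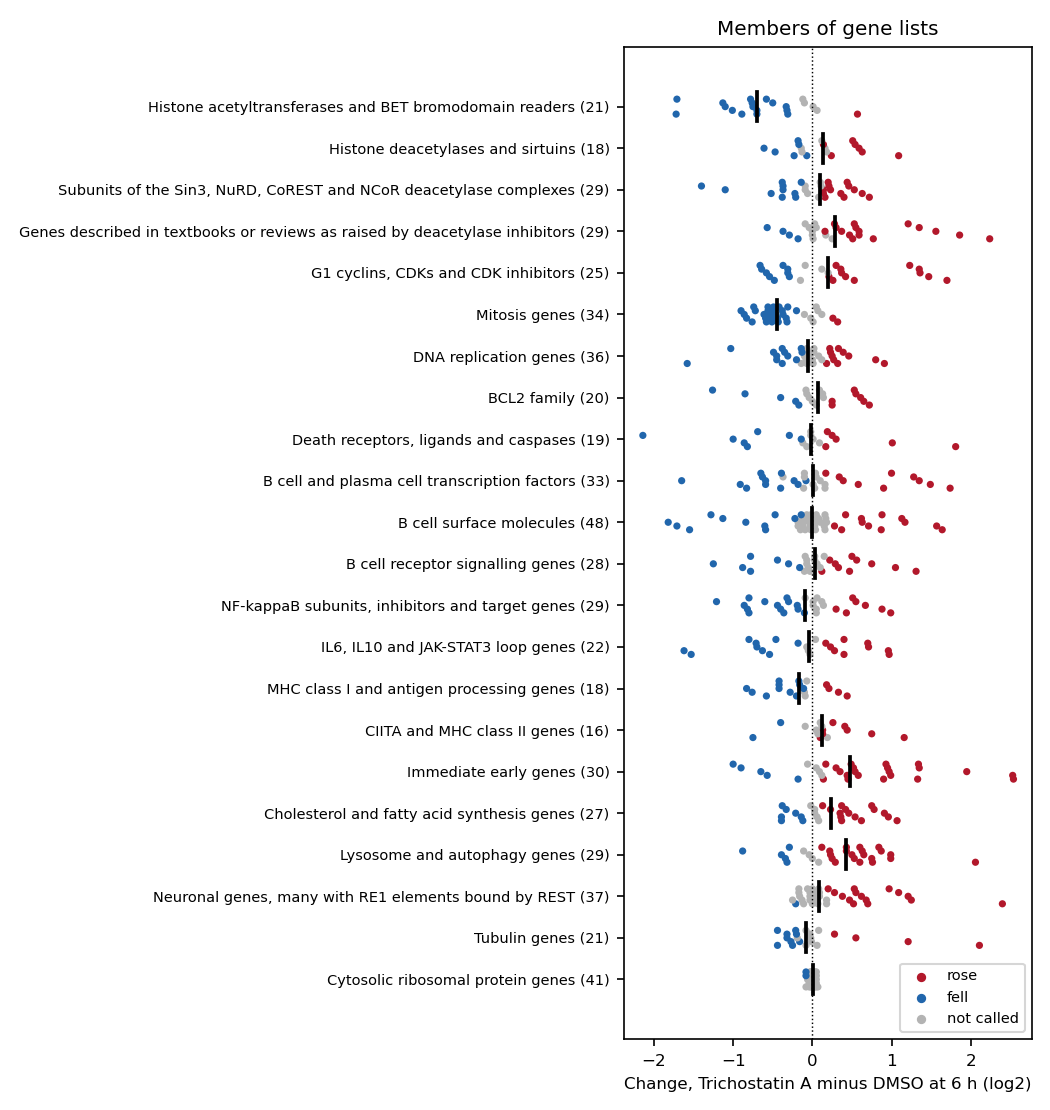
Change from DMSO at 6 h in log2 units (horizontal axis) of each measured member of 22 gene lists, with the number of members in brackets; red points rose, blue points fell, grey points were not called, black ticks are list medians and the dotted line is the median of all genes. Acetyltransferases lie mostly to the left (median -0.70), as do mitosis genes (-0.45), and immediate early (0.47) and lysosomal genes (0.43) mostly to the right.

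Regulators of the G1 phase moved in both directions, 12 of 25 rising and 9 falling. The INK4 inhibitors CDKN2B (p15) and CDKN2D (p19) rose by 1.70 ± 0.10 and 1.47 ± 0.06. CDKN2D measured 9.50, 9.52 and 9.59 as lowest, median and highest under Trichostatin A and 7.84, 8.08 and 8.20 in DMSO, with no overlap. CCNE1 (cyclin E), which drives entry into S phase, rose as well, by 1.36 ± 0.05. CDKN1B (p27), named after its values were seen, fell by 0.66 on the log2 scale. Mitosis genes went mostly one way: 26 of 34 fell and 2 rose, with a median of -0.45. The kinase PLK1, the ubiquitin-conjugating enzyme UBE2C, the centromeric histone CENPA and the spindle protein ASPM changed by -0.90, -0.86, -0.83 and -0.76. Of 36 DNA replication genes, 11 rose and 12 fell, among them the GINS subunit GINS3 at -1.58 ± 0.07, POLE2 at -1.03 ± 0.06, and the licensing factor CDC6, which rose by 0.91.

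Genes of cell death moved both ways. In the BCL2 family 7 of 20 rose and 5 fell. The survival genes BCL2L1 (BCL-XL) and BCL2 changed by -1.26 ± 0.06 and -0.85 ± 0.07, while the BH3-only gene BAD and BCL2L12 rose by 0.72 and 0.65. BCL2L1 measured 7.55, 7.72 and 7.91 under Trichostatin A and 8.89, 8.93, 8.99, 8.99, 9.02, 9.02, 9.02 and 9.05 on the DMSO arrays, so the groups were clearly apart. Among death receptor, ligand and caspase genes, 6 of 19 rose and 7 fell. The ligand TNFSF10 (TRAIL) rose by 1.81 ± 0.07, from 7.13, 7.20 and 7.48 to 8.96, 9.04 and 9.17. Its receptors TNFRSF10A and TNFRSF10B, named after their values were seen, gave -0.02, which was not called, and 0.17. FAS, the receptor of another ligand, FASLG, went from 9.80, 9.92 and 10.07 to 7.52, 7.83 and 8.00. CASP9, the initiator caspase of the apoptosome, rose by 1.01 ± 0.05, and its inhibitor XIAP fell by 1.00 on the log2 scale.

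Of 33 B cell and plasma cell transcription factors, 10 rose and 12 fell. IKZF1 (Ikaros), a zinc finger regulator of lymphoid development, fell the most. It measured 7.22, 7.37 and 7.62 under Trichostatin A and 8.73, 8.75, 8.92, 8.97, 9.04, 9.12, 9.37 and 9.38 on the DMSO arrays, a change of -1.65 ± 0.08 that all 3 of its probe sets shared in direction. MYBL1, a MYB relative of germinal centre cells, ID3, an inhibitor of E proteins, and KLF2, a factor of resting lymphocytes, rose by 1.74 ± 0.08, 1.49 ± 0.08 and 1.35 ± 0.10. Of the genes named after their values were seen, the germinal centre repressor BCL6 rose by 1.00, and MYC and the plasma cell factor PRDM1 changed by -0.65 and -0.59. In the MYC network, MXD1, a MAX partner that opposes MYC, rose by 1.34 ± 0.06, and MXD4, another such partner, changed by -0.89. Of the 13 members, 6 rose and 4 fell.

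At the cell surface, 12 of 48 B cell molecules rose and 11 fell. The migration receptors S1PR1, which responds to sphingosine-1-phosphate, and GPR183, which responds to oxysterols, changed by -1.82 ± 0.07 and -1.71 ± 0.09. S1PR1 measured 8.09, 8.21 and 8.44 under Trichostatin A and 9.91, 10.08 and 10.29 in DMSO. The complement receptor CR2 (CD21) rose by 1.64 ± 0.06 and the small surface glycoprotein CD52 by 1.57 ± 0.10. In B cell receptor signalling, 10 of 28 genes rose and 7 fell. Several members were low in DMSO, leaving little room for a fall, among them BTK at 3.55 and BLNK at 4.12. The receptor subunits CD79A and CD79B were also low, at 5.02 and 4.94. The adaptor DOK3 rose by 1.31 ± 0.08 on 1 of its 2 probe sets, the exchange factor VAV1 rose by 1.05 ± 0.07, and the exchange factor RASGRP3 and the lipid phosphatase INPP5D (SHIP1) changed by -1.25 ± 0.05 and -0.88. MHC class I and antigen processing genes fell in 11 of 18 cases and rose in 4, with a median of -0.16, and class II genes rose in 8 of 16 and fell in 2, with a median of 0.12. HLA-DOB rose by 1.16 on 1 of its 2 probe sets and ERAP1, a peptide trimmer, fell by 0.83 on the log2 scale. HLA genes share sequence, and the 10 probe sets of HLA-F went both ways, from -1.61 to 0.40.

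NF-kappaB and JAK-STAT3 signalling are active in lymphoma lines of the activated B cell type, to which OCI-Ly3 belongs. Of 29 NF-kappaB genes, 14 fell and 7 rose, with a median of -0.09; the chemokine CCL3 changed by -1.21 ± 0.06 and the caspase-8 regulator CFLAR (c-FLIP) by -0.86, while IER3 rose by 0.99. In the loop of IL6, IL10 and STAT3, 9 of 22 genes rose and 9 fell. IL6 measured 4.42, 4.87 and 5.18 under Trichostatin A and 6.30, 6.51 and 6.69 in DMSO, a change of -1.62 ± 0.09 on 1 of its 2 probe sets. SOCS2, an inhibitor of cytokine signalling, measured 9.49, 9.64 and 9.83 against 11.09, 11.19 and 11.29, a change of -1.53 ± 0.05. The kinase genes PIM1 and PIM2, known STAT3 targets, rose by 0.97 and 0.96. Among interferon-stimulated genes, 10 of 34 rose and 9 fell, and SAMD9, IFI27, GBP2 and OASL rose by 1.00 to 1.35.

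Immediate early genes, transcribed within minutes of a stimulus, rose in 21 of 30 cases and fell in 5, with a median of 0.47. EGR4, a zinc finger factor, measured 10.02, 9.93 and 10.05 at 0.143 uM and 9.73, 9.86 and 9.74 at 0.114 uM, against 6.92, 7.33 and 7.73 in DMSO, a change of 2.53 ± 0.09. Its groups were 2 log2 units apart. EGR3 rose by 2.54 ± 0.08 and the orphan nuclear receptor NR4A2 by 1.95 ± 0.09. FOSB rose by 1.35 ± 0.11 on 1 of its 2 probe sets. Lysosome and autophagy genes rose in 20 of 29 cases and fell in 5, with a median of 0.43. WIPI1, which binds phosphoinositides on forming autophagosomes, rose by 2.06 ± 0.07, from 7.08, 7.28 and 7.43 to 9.22, 9.32 and 9.52. The lysosomal enzymes GLA and NEU1 both rose by 0.99, and TFEB, the transcription factor of lysosomal genes, fell by 0.88 on the log2 scale. Of 27 cholesterol and fatty acid synthesis genes, 15 rose and 7 fell, with a median of 0.23, led by the sterol reductase TM7SF2 at 1.07 ± 0.05 and SREBF1 at 0.96 ± 0.08 on 1 of its 3 probe sets.

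Among stress genes the lists were split. Heat shock genes rose in 14 of 27 cases and fell in 6, with HSPA2, the testis-enriched HSP70, at 1.69 ± 0.10. Genes of the unfolded protein and ATF4 responses rose in 15 of 29 and fell in 10, within -0.65 to 0.71. Of 23 NRF2 genes, 7 rose and 9 fell: alongside KEAP1, the quinone reductase NQO1 and the glutathione synthesis subunit GCLM changed by -0.87 and -0.90, and the other subunit GCLC rose by 0.63. Of 33 p53 targets, 14 rose and 10 fell, with TIGAR at 1.34 on 1 of its 2 probe sets and PHLDA3 at -0.99. In ribosome biogenesis, 11 of 33 rose and 13 fell; UBTF, the factor that directs RNA polymerase I, changed by -1.24 ± 0.05 and BOP1 by 1.16 ± 0.07. Of 41 cytosolic ribosomal protein genes, 0 rose and 2 fell, RPL10 and RPLP1, and both calls were lost on leaving out single arrays. The 6 probe sets of RPL10 ran from -0.60 to -0.02, and 4 of them fell. Actin cytoskeleton genes rose in 7 of 32 cases and fell in 11, the small GTPase RND3 rising by 1.53 ± 0.10. Metallothionein and zinc genes rose in 5 of 14 cases and fell in 1, SLC39A10, whose call was lost in some alternatives. Of 28 germline genes, 2 rose, TEX14 at 0.33 and SYCP3 at 0.19, and 2 fell, PRAME at -0.58 and MAGEC2 at -0.24. The calls of TEX14, SYCP3 and MAGEC2 were lost in some alternatives.

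Tubulin genes changed by member. TUBB4A, the beta-tubulin of oligodendrocytes and neurons, rose by 2.11 ± 0.09, from 6.38, 6.75 and 7.05 to 8.73, 8.79 and 9.17, TUBA4A by 1.21 ± 0.08 and the neuronal TUBB3 by 0.55. Of the 21 genes of this list, which includes the tubulin acetyltransferase ATAT1 (not called, at 0.08), 4 rose and 9 fell, the falls being at most 0.44 on the log2 scale. Neuronal genes, many of which carry the RE1 element bound by the repressor REST, rose in 15 of 37 cases and fell in 1, and 21 were not called, so that the median was only 0.09. RAB3A, a synaptic vesicle GTPase, measured 7.96, 7.78 and 7.64 at 0.143 uM and 7.79, 8.03 and 7.77 at 0.114 uM, against 5.18, 5.38 and 6.01 in DMSO, a change of 2.40 ± 0.09. On the probe set used, its highest control array lay well below the lowest treated one. Its other probe sets changed by 0.78 and 0.12, the latter not called. Their mean levels over the 6 h arrays were 5.31 and 5.33, against 5.62 for the one used. STX1A (syntaxin 1A) and SYN1 (synapsin I), both of the presynaptic terminal, and the potassium channel gene KCNH2 rose by 1.25 ± 0.09, 1.21 ± 0.07 and 1.09 ± 0.11. SYN1 measured 8.64, 8.73 and 8.88 under Trichostatin A and 7.42, 7.51 and 7.74 in DMSO. REST itself, named after its value was seen, did not pass, at -0.09.

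The 250 bases before the RefSeq start of 14484 of the 18239 genes (build GRCh38.p14) were searched on both strands. The GC box GGGCGG, the core bound by SP1 factors, which are known to recruit deacetylases, was found in 57.3% of all of them. It was found in 75% of the 388 genes that rose by at least 1 log2 unit, 62.7% of the 477 that fell by as much, and 64.1% of 2459 genes that were not called but lay in the upper 3 of 5 equal bins of level in untreated medium. Promoters of the large risers were also richer in G and C, with a median of 68.0% against 63.2% in the large fallers and 62.8% in all, and the part of base composition in the GC box shares was not tested. CCAAT was found in 45.6%, 29.6% and 34.5% of large risers, large fallers and all genes, and in 33.4% of the 2459 uncalled genes. For the cyclic AMP element TGACGTCA these shares were 4.12%, 1.47%, 2.35% and 2.93%. The core of the RE1 element was rare, in 3 large risers, 3 large fallers, 49 of all genes and 8 uncalled genes. These were 0.773%, 0.629%, 0.338% and 0.325%, counts too small to compare. A motif match is a description of the letters, not of binding. The promoters of 4 genes that rose and of CREBBP, which fell, are shown 5′ to 3′ up to the base before the start, with GC boxes on either strand, the cyclic AMP element and the RE1 core in capitals. SYN1 (chrX:47619858-47620107, minus strand) holds the RE1 core, then the cyclic AMP element, and no GC box. STX1A (chr7:73719670-73719919, minus strand), RAB3A (chr19:18204043-18204292, minus strand) and TPPP (chr5:693353-693602, minus strand) hold 7, 3 and 10 GC boxes. CREBBP (chr16:3880714-3880963, minus strand) holds 3 GC boxes, 2 of which overlap.
SYN1: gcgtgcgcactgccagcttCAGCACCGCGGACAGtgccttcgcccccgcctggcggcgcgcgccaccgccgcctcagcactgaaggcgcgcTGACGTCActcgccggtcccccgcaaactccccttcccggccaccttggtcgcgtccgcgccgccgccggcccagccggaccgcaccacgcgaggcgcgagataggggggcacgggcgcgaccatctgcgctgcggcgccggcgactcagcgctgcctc
STX1A: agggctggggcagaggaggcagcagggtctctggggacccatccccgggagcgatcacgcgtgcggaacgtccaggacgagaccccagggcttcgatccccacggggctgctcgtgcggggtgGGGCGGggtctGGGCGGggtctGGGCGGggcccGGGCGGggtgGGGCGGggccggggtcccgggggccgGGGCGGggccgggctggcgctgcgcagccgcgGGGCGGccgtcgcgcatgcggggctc
RAB3A: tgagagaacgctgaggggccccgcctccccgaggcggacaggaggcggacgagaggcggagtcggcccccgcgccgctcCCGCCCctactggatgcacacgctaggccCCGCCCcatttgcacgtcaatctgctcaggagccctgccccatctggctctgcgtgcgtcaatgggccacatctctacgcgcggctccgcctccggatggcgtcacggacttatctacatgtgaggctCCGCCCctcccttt
TPPP: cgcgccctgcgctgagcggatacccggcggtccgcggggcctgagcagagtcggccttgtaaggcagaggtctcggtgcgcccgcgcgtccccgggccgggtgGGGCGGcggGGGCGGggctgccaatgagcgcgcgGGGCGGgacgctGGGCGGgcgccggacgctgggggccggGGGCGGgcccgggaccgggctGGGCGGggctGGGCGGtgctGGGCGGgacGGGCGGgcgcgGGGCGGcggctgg
CREBBP: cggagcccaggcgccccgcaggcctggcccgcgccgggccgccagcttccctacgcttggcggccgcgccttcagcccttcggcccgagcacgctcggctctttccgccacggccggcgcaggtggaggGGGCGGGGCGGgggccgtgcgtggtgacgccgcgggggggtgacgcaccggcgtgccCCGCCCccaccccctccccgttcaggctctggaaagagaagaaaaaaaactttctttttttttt

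The share of genes that moved differed with the level before treatment. Genes were split into 5 equal bins by their mean in the 2 arrays of untreated medium, which are not part of the contrast. In the lowest bin 5.54% rose and 3.76% fell, in the middle bin 34.9% and 25.5%, and in the highest 31.1% and 45.5%. Rises of at least 1 log2 unit were most frequent in the middle bin (6.72% of genes, against 0.630% in the highest), and falls of at least 1 in the bin from 7.75 to 9.46 (6.96%, against 0 genes in the lowest). The lowest bin spanned levels of 3.19 to 4.24, near the bottom of the scale.

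The 2 doses, 0.143 and 0.114 uM, gave responses that could not be told apart gene by gene. Against DMSO, 4066 genes rose and 4094 fell at the higher dose (44.7% called in all), and 4089 and 3999 at the lower (44.3%), with the same DMSO arrays in both. Directly compared, 0 genes differed at an adjusted p under 0.05 in limma, the smallest adjusted p being 0.244. Of 18239 genes, 1017 had an unadjusted p under 0.05, where chance alone gives a share of about 0.05. With a gene's probe sets averaged, 2 genes were called. The 95% interval of a dose difference, unadjusted for the number of genes, had a median half-width of 0.24. The difference reached at most 0.70 in size among genes that changed by at least 1 log2 unit, and was not called there. The muscle acetylcholine receptor gene CHRNA1 had the largest difference of all genes, -0.99 ± 0.26 (adjusted p = 0.431), and its mean level in untreated medium was only 4.30.

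Trichostatin A arrays were then set directly against each of the 27 other groups of 6 h. Between 7851 genes (monastrol 100 uM, 43.0%) and 10161 genes (H-7 20.2 uM, 55.7%) differed from a single group. In all 27 comparisons, which share the Trichostatin A arrays, 1337 genes were higher (7.33% of genes tested) and 1218 were lower (6.68%). CXADR was the most distinct of the higher genes: its nearest group, doxorubicin at 0.101 uM, had a mean of 7.04 against 9.31, a difference of 2.28 ± 0.13 (SE, adjusted p = 2.78e-28 in limma). GPR155 was 2.17 ± 0.14 above its nearest group, camptothecin at 0.31 uM. The dynein assembly factor DNAAF3, SERPINI1, TSPAN13, TXK, ENPP2, TPPP, the TNF receptor family member TNFRSF19 and RAB3A followed, at 1.78 to 1.89 above theirs. PRDM10 was the most distinct of the lower genes, with a difference of -2.74 ± 0.08 to its nearest group, again camptothecin at 0.31 uM, and means of 5.75 and 8.49. FNDC9, FAS, COIL and KIF26B differed from theirs by -2.13, -1.93, -1.82 and -1.74. Of the 16 acetyltransferases and readers that fell, 10 were lower than in every other group, among them KAT6B, CREBBP, BRPF3 and BRD2. HDAC3 was higher than in every other group, as were TNFSF10, CDKN2D, WIPI1, EGR3, EGR4, STX1A and SYN1. Some of these were also high under camptothecin at 0.31 uM: EGR4 had a mean of 9.59 there, against 7.36 in DMSO and 9.78 and 10.00 under Trichostatin A. EGR3 had a mean of 9.53 there, against 7.90 in DMSO and 10.38 and 10.49, and TNFSF10 one of 8.33, against 7.25 in DMSO and 9.05 and 9.07. DHRS2 was also higher than in every other group. The rises of CDKN2B, CR2 and FOS family member FOSB, and the falls of IKZF1 and CCL3, were not called against every other group. For CDKN2B, FOSB and TENT5C, 1 other group was called higher than Trichostatin A, and for ZBED2 1 was called lower.

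**Figure D3:**
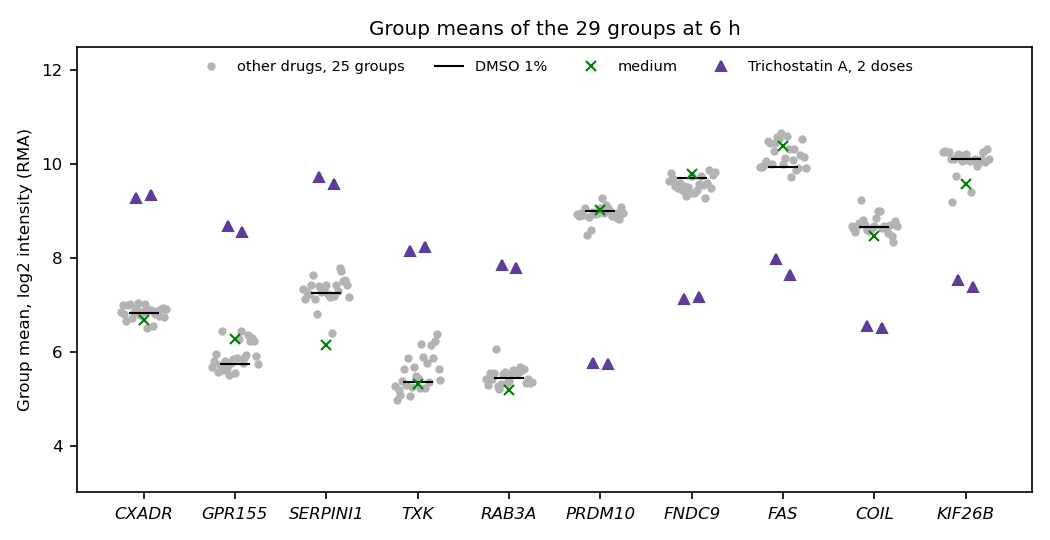
Mean log2 intensity (vertical axis) of 10 genes in each of the 29 groups of 6 h; purple triangles are the 2 Trichostatin A doses, grey circles the 25 groups of other drugs, black bars DMSO and green crosses untreated medium. In each gene the triangles stand apart from all other groups, as for CXADR at a mean of 9.31 against 7.04 in the nearest group. CXADR was among the genes named for their distance from all other groups.

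The same contrast was measured at 12 and 24 h, on arrays that were less even. The upper quartile of the Trichostatin A arrays ran from 7.63 to 8.36 at 12 h and from 7.34 to 8.24 at 24 h, that of DMSO from 7.52 to 8.19 and from 7.98 to 8.25, and the median SE was 0.198 at both times. With all arrays, 2252 genes rose and 1801 fell at 12 h (22.2% called), and 344 and 524 at 24 h (4.76%). Leaving out arrays with an upper quartile under 8 was a choice made after seeing the data. It left 4 treated and 4 control arrays at 12 h and 5 and 7 at 24 h. At 24 h, 5379 of the 18239 genes were then called, against 868 with all arrays. The counts at the later times thus moved with these arrays, and the later values of genes named for their course are given both ways.

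The genes that moved most at 6 h were chosen there, which by itself makes later values smaller. Of the 469 that rose by at least 1 log2 unit, the medians of the change at 6, 12 and 24 h were 1.25, 1.25 and 0.03, and the later medians were 1.25 and 0.11 without the weak arrays. Of the 565 that fell by as much, it was -1.25, -0.99 and -0.12, or -1.09 and -0.05 at the later times without those arrays. The difference between 24 and 6 h was called for 2392 of the 18239 genes (13.1%), or 7388 without the weak arrays. It ran toward 0 for 403 of the 469 and 439 of the 565, or 445 and 554 without those arrays. Between 12 and 6 h it was called for 83 genes (0.455%), or 3023 without the weak arrays.

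Single genes followed different courses. GPR155 changed by 2.89 ± 0.11, 2.23 ± 0.15 and 0.15 ± 0.15 at 6, 12 and 24 h, and TXK by 2.83 ± 0.12, 2.12 ± 0.25 and 0.30 ± 0.25. Without the weak arrays GPR155 gave 2.48 and 0.19 at 12 and 24 h, and TXK 1.85 and 0.43. SERPINI1 and PCDH9 rose further by 12 h, to 3.89 ± 0.26 and 3.81 ± 0.22, before reaching 0.18 ± 0.26 and -0.18 ± 0.22 at 24 h. Their differences from 6 to 12 h were 1.50 and 1.41. Without the weak arrays the differences were smaller but still called, at 0.93 and 0.87, with changes of 3.33 and 3.26 at 12 h and 0.21 and 0.14 at 24 h. Of the 20 largest rises, ENPP2, TPPP, COL20A1 and TSPAN13 were called at 24 h with all arrays, at 0.97, 0.92, 0.89 and 0.88, and gave 1.06, 1.12, 1.18 and 1.03 without the weak arrays. EGR3, EGR4, CXADR, DACT3, DHRS2 and MAP1A were called as well once the weak arrays were left out, at 0.44, 0.56, 0.59, 0.25, 0.43 and 0.46. CD52 stayed up at all times, with changes of 1.57 ± 0.10, 2.20 ± 0.17 and 2.03 ± 0.17, the later ones being 2.68 and 2.08 without the weak arrays. CCL1 crossed from -2.76 ± 0.05 at 6 h and -1.59 ± 0.20 at 12 h to 2.09 ± 0.20 at 24 h, where it was higher than DMSO (adjusted p = 5.82e-17 in limma). The difference of 4.85 ± 0.29 from 6 to 24 h was 4.91 without the weak arrays. IL6 went from -1.62 ± 0.09 and -1.01 ± 0.23 to 2.36 ± 0.23, and the chemokine CCL3 from -1.21 ± 0.06 and -1.51 ± 0.21 to 0.86 ± 0.21. Without the weak arrays, CCL1, IL6 and CCL3 gave -1.50, -1.20 and -1.44 at 12 h and 2.15, 2.42 and 0.87 at 24 h. HDAC3 was 1.11 ± 0.20 higher at 12 h and gave -0.50 ± 0.20 at 24 h, which was not called with all arrays (adjusted p = 0.14 in limma). Without the weak arrays it gave 0.94 at 12 h and was called lower at 24 h, at -0.38 (adjusted p = 0.00137).

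**Figure D4:**
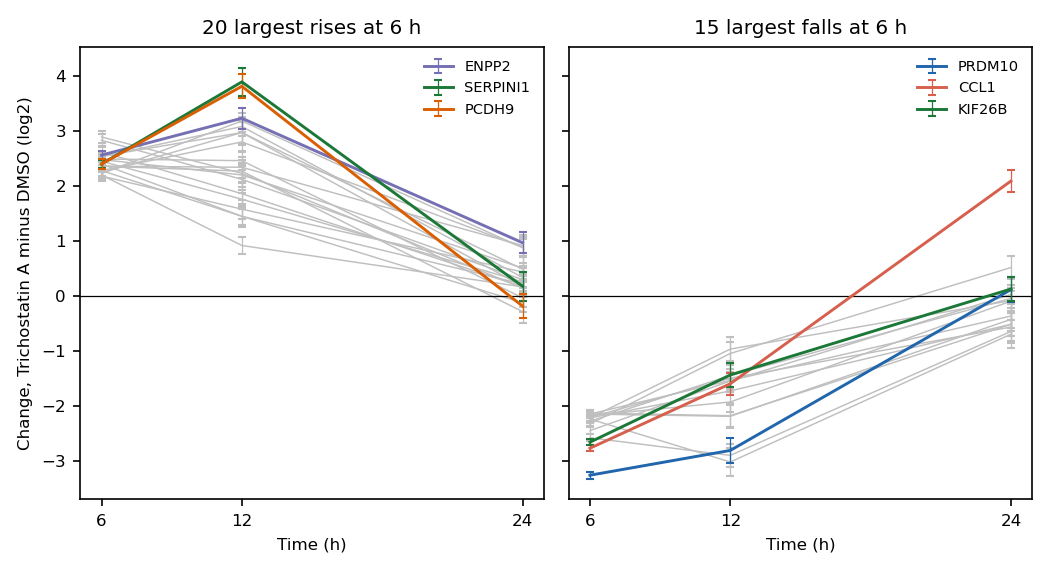
Change from DMSO in log2 units (vertical axis) at 6, 12 and 24 h (horizontal axis) for the 20 largest rises and the 15 largest falls of 6 h; each line is 1 gene, bars are standard errors of the limma fit, and coloured lines are the genes named in the key. All arrays are used. Most lines lie near 0 by 24 h, SERPINI1 and PCDH9 peak at 12 h (3.89 and 3.81), and CCL1 crosses from -2.76 to 2.09.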

How the data were processed

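Biotin-labelled RNA of single wells was read on HT HG-U219 arrays (Affymetrix). The authors deposited log2 intensity values from RMA, per the submitters' processing notes; its version is not given in the sources used here. RMA forces arrays toward one distribution, so a shift of all genes would be reduced. Of 49386 probe sets, 45259 were listed with 1 gene, 1327 with several and 2800 with none in the platform annotation. Each of 18239 genes is given by 1 probe set, that of the highest mean in the 282 arrays.

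Group means were fitted with limma 3.58.1 (R 4.3.3, eBayes with trend) over the 94 arrays of 6 h, in 29 groups that shared 1 estimate of spread, and over 282 arrays for time. P-values were adjusted by Benjamini-Hochberg over all genes, called under 0.05. The fit was tested on simulated data. Figures used matplotlib 3.10.9.

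The members and the 38 gene lists were chosen with earlier results of these data known. Named genes are the 20 largest rises and 15 largest falls with groups apart, the 4 largest called members of each list, all deacetylases, the 10 higher and 5 lower genes farthest from all other groups, and the gene with the largest dose difference. Others are said to be named after their values were seen. Alternatives changed the arrays fitted, dose, probe sets, filter, normalization, scaling, prior and replicate block, or left out single arrays.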

Additional observations from a re-analysis of the deposited data

Results flagged for a closer look

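In 33 of 376 groups of arrays examined, for the named genes at 6 h, the highest or lowest array lay far from the others by Dixon's criterion, and chance alone gives about 1 in 20. On replicate 1 of 0.114 uM the log2 level lay apart from the other treated arrays for SIRT7 at 10.70, CDKN1C at 6.21, H2AC11 at 7.33, H1-10 at 11.65, KLF2 at 7.00 and PIM1 at 9.21. On replicate 2 of 0.114 uM the log2 level lay apart from the other treated arrays for BCL2L12 at 11.88, HLA-DOA at 9.83 and TAP1 at 11.19. On replicate 3 of 0.114 uM the log2 level lay apart from the other treated arrays for KEAP1 at 7.17, GPS2 at 10.74 and PIM2 at 7.98. On replicate 1 of 0.143 uM the log2 level lay apart from the other treated arrays for TUBB4A at 9.17 and HDAC4 at 9.49. On replicate 3 of 0.143 uM the log2 level lay apart from the other treated arrays for CD200R1 at 5.89, HSPA6 at 4.96, TFEB at 7.71 and TNFRSF19 at 7.15. DMSO replicate 2 stood apart for SIRT2 at 8.42, H2AJ at 4.87, HLA-F at 10.67, BOP1 at 9.27, RPLP1 at 13.74 and SIRT6 at 7.64. DMSO replicate 4 stood apart for MLXIP at 8.27. DMSO replicate 5 stood apart for H2AC15 at 5.67, RPL10 at 13.73, HSPA1L at 6.89 and DNAAF3 at 5.40. DMSO replicate 6 stood apart for H2AC11 at 6.11. DMSO replicate 7 stood apart for RAB3A at 6.01, PRDM10 at 9.23 and MXI1 at 10.13.

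The change from DMSO differed between times in the test of the difference itself (limma, adjusted p under 0.05). From 6 to 24 h, the difference in log2 change was negative for GPR155 (-2.74), TXK (-2.54), PCDH17 (-2.45), ENPP2 (-1.58), EGR3 (-2.36), EGR4 (-2.19), AVPI1 (-2.52), CXADR (-1.97), DACT3 (-2.19), RAB3A (-2.52), SERPINI1 (-2.21), PCDH9 (-2.58), TENT5C (-2.64), TPPP (-1.43), COL20A1 (-1.39), TRIM36 (-2.05), DHRS2 (-1.76), TSPAN13 (-1.35), EFNA3 (-2.04) and MAP1A (-1.74). It was positive for PRDM10 (3.37), CCL1 (4.85), KIF26B (2.78), FNDC9 (1.92), RABEP2 (2.48), ZBED2 (2.83), ZMYND8 (2.23), SMIM43 (1.54), KEAP1 (1.70), FAM217B (2.13), CD200R1 (1.64), FAIM (2.08), COIL (1.78), FAS (1.71) and ZMYND11 (1.61). From 6 to 12 h, it was positive for SERPINI1 (1.50), PCDH9 (1.41), TSPAN13 (0.95), CCL1 (1.16), KIF26B (1.22), ZBED2 (1.28) and FAM217B (1.25), and negative for RAB3A (-0.95) and EFNA3 (-1.28). These genes were chosen for their size at 6 h, and the arrays of the later times were less even. Without arrays of an upper quartile under 8, the differences listed kept their direction and call: from 6 to 24 h they ran from -2.70 to -1.10 and from 1.59 to 4.91. From 6 to 12 h they were 0.93 for SERPINI1, 0.87 for PCDH9, 0.83 for TSPAN13, 1.26 for CCL1, 1.35 for KIF26B, 1.34 for ZBED2, 0.64 for FAM217B, -0.88 for RAB3A and -1.03 for EFNA3. The part of the choice at 6 h in the differences was not tested.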

How the results depend on the processing

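Under the alternatives at 6 h, 3953 to 4783 genes rose and 3999 to 4648 fell, and 1185 to 1452 were higher and 1187 to 1296 lower than all 27 other groups. Leaving out single arrays gave 4330 to 4446, 4285 to 4455, 1294 to 1343 and 1175 to 1224. The count of genes that differed between doses was 0 in limma, with 1017 of 18239 at an unadjusted p under 0.05. It was 2 with the mean of all probe sets. Without single arrays it ran from 0 to 1, 1 coming without replicate 3 of 0.143 uM. The count that differed between 12 and 6 h, 83, was 205 with the mean of all probe sets, 50 to 70 without single replicates, and 3023 without arrays of an upper quartile under 8. That between 24 and 6 h, 2392, ran from 1888 to 2273 without single replicates and was 7388 without those arrays; the cause was not tested. Of 188 named genes, 169 kept direction and call under every alternative run. HDAC2 turned to -0.02 with the replicate block (adjusted p = 0.821 in limma), and HDAC7 to -0.17 with the mean of all probe sets (adjusted p = 0.00951). Same-numbered samples did not deviate together (9 pairs, r from -0.01 to 0.06), so numbers do not pair them; with the replicate block, 4206 genes rose and 4230 fell, 1334 and 1215 stood apart from all groups, and 0, 78 and 2374 differed between doses, 12 and 6 h, and 24 and 6 h. The number of arrays limits the precision.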
